A study of Rattus norvegicus with 6 samples.

Results

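Circular RNAs (circRNAs) that join 2 to 4 annotated exons were the most numerous class in these rat lungs. They numbered 2763 of 4783 exonic circRNAs and of 5216 circRNAs in all, and held 61.3% of the exonic back-splice reads. Members were taken from the deposited circRNA table by 2 columns, the type (exonic, not intronic) and the number of exons between both ends of the back splice, so no measured level chose them. There were 1120 circles of 2 exons, 928 of 3 and 715 of 4. The neighbouring classes held 279 circles of 1 exon and 1741 of 5 or more, and 433 circRNAs were intronic.

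A circRNA arises by back-splicing, in which the spliceosome joins the donor at the end of a downstream exon to the acceptor at the start of an upstream exon of the same transcript. The product has no free ends, so exonucleases that degrade linear RNA do not start on it, and it is read out by sequencing reads that cross the back-splice junction. Long introns on both sides of the exons, RNA-binding proteins such as QKI and base-paired repeats in those introns are known to favour it, while the RNA editing enzyme ADAR and the helicase DHX9 are known to act against it.

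The samples were whole lung of Sprague-Dawley rats that were 7 weeks old at the start. The 3 model rats received a single intratracheal dose of bleomycin, 7 mg/kg, a drug that injures the alveolar epithelium and is widely used to produce pulmonary fibrosis (PF), and the 3 control rats received saline. Lungs were taken on day 28, and 1 library depleted of ribosomal RNA was made per rat, so a difference in the cells that make up the tissue and a difference in RNA per cell cannot be told apart here. Single-dose bleomycin is an injury model at 1 time point.

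Reads per circle were few. A library held between 2037 and 2964 back-splice reads over all circRNAs. Lung markers were high in every library, with 2410 to 4146 FPKM (fragments per kilobase of transcript, scaled to the library) of the surfactant gene Sftpc and 4050 to 7677 FPKM of the club cell gene Scgb1a1. The ranges of the collagen genes Col1a2 (24.7 to 26.3 FPKM in control, 27.1 to 35.7 in model) and Col3a1 (159 to 186 and 196 to 241 FPKM) did not overlap between the groups, while those of Col1a1, Fn1, Postn and Acta2 did. Of the alveolar epithelial markers, Sftpd (10.0 to 12.99 and 13.4 to 15.2 FPKM) and Hopx (17.1 to 17.6 and 17.8 to 21.5 FPKM) also did not overlap, with the model libraries higher, and the part of these markers in the results was not tested. The cardiac genes Myh6 (5.11 FPKM) and Tnnt2 (2.35 FPKM) stood out in model library 3, which also had most back-splice reads, and their part in the results was not tested.

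The first question was whether this class as a whole changed in the PF model. The circles of 2 to 4 exons drew 1492, 1241 and 1609 back-splice reads in the control libraries and 1410, 1273 and 1739 in the model libraries. The highest and the second lowest total were both model libraries, and the groups overlapped. Control lungs averaged 1447 ± 188 and model lungs 1474 ± 240 (SD, n = 3 each), a difference of 26.7 reads (exact permutation test, two-sided, p = 0.9, where 3 rats against 3 allow no p below 0.1). On SRPBM, the authors' back-splice reads scaled to a total per sample, the sum lay the other way, at 5011 ± 1414 in control and 4622 ± 898 in model (SD, n = 3, exact permutation p = 0.7).

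The share of the exonic back-splice reads that fell on this class was 60.0%, 59.0% and 62.9% in control and 59.5%, 65.3% and 61.5% in model libraries. The 95% Wilson interval, which covers counting error only, ran from 56.9% to 61.1% in control library 2, the lowest, and from 63.2% to 67.4% in model library 2, the highest. Those single libraries lay apart beyond counting error, but the groups overlapped, with means of 60.7% ± 2.04 and 62.1% ± 2.97 (SD, n = 3, exact permutation p = 0.6). The number of different circles detected was 754, 625 and 713 in control and 720, 637 and 869 in model libraries, or 697 ± 65.9 and 742 ± 118 (SD, n = 3, exact permutation p = 0.6). Counting only circles with at least 2 reads in a library, the mean was 297 in both groups. The division of the class among 2, 3 and 4 exons also differed little, with 38.1% ± 2.18 and 37.4% ± 1.12 of the reads on circles of 2 exons in control and model (SD, n = 3, exact permutation p = 0.7).

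**Figure D1:**
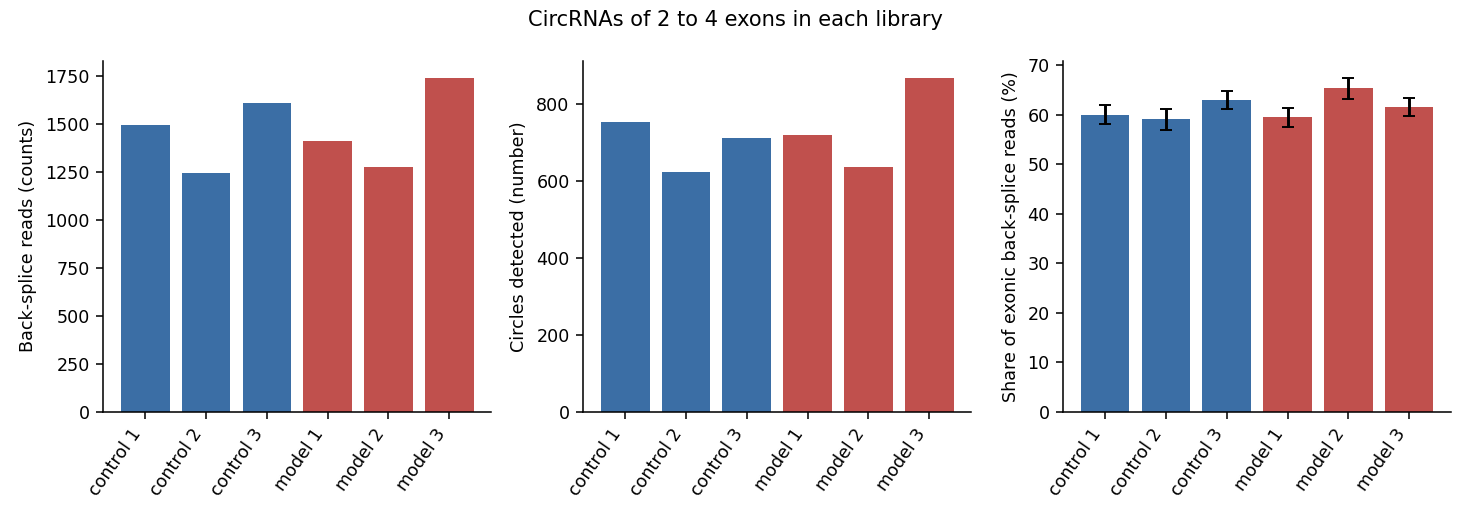
CircRNAs of 2 to 4 exons in each of the 3 control (blue) and 3 model (red) libraries, as back-splice reads, as number of different circles, and as percent of the library's exonic back-splice reads with 95% Wilson intervals. The bars of both groups overlap in each panel, with reads from 1241 to 1739 and shares from 59.0% to 65.3%.

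Most members were seen once. Of the 2763 circles, 1449 (52.4%) had a single read over the 6 libraries, and 159 (5.75%) had at least 10. Those 159 held 3625 reads, 25.4% of all exonic back-splice reads. By library, 1986 circles were found in 1 library only, 398 in 2, 169 in 3, 80 in 4, 71 in 5 and 59 in all 6. The 59 circles found in every lung carried 2061 reads, 23.5% of the class. Any 2 libraries of the same group shared between 186 and 215 circles and any 2 of different groups between 175 and 217.

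A circle of 2 to 4 exons recurred more often than one of 5 or more exons and less often than one of 1 exon. In a library, 54.4% ± 3.58 (SD, n = 6) of the circles of 2 to 4 exons were also found in at least 1 other library, against 38.9% ± 2.34 for 5 or more exons (higher in 6 of 6 libraries) and 66.8% ± 3.60 for 1 exon (lower in 6 of 6). Reads per detected circle had the same order, at 2.03 ± 0.112, 1.68 ± 0.117 and 3.15 ± 0.340 (SD, n = 6). Each of these 4 differences had an exact paired permutation p of 0.03125, the smallest that sign flips over 6 libraries allow, or 0.0417 adjusted over 12 comparisons between classes. Recurrence and reads per circle rest on the same counts, since a circle with more reads can be found in more libraries. A circle shared by several libraries also counts in each of them, so the 6 values are not independent.

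**Figure D2:**
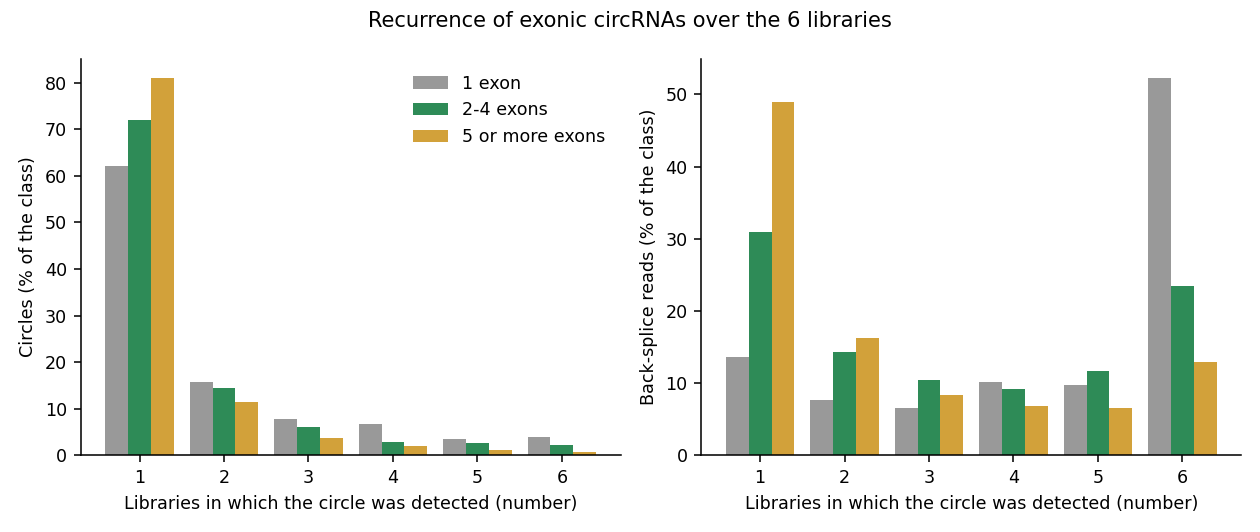
Percent of the circles of each class (left) and percent of its back-splice reads (right) by the number of libraries in which the circle was detected, for circles of 1 exon (grey), 2 to 4 exons (green) and 5 or more exons (yellow). Of the circles of 2 to 4 exons, 71.9% were in 1 library and 2.14% in all 6, and the latter held 23.5% of the reads.

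A similar number of circles was confined to each group. There were 1045 circles in control libraries only, of which 682 had a single read, and 1131 in model libraries only, of which 767 had a single read. The other 587 were found in both groups. Only 5 circles were in all 3 control and no model libraries, and 10 were in all 3 model and no control libraries. The same counts over all circRNAs were not taken, so none of these numbers can be read as a trait of the class. The first set was circRNA431 of Zfp532, circRNA51 of Ptpn14, circRNA387 of Arhgap10, circRNA507 of AABR07058158.1 and circRNA1137 of Ubr2, and it is named after its values were seen. Apart from circRNA431, with 12 reads, these circles had between 4 and 6 reads each, and those of the second set between 3 and 8. In the second set, circRNA3310 of Golim4, which encodes a Golgi membrane protein, had 2, 2 and 4 reads in the model libraries. These counts were below the minimum of 10 reads used for testing.

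Genomic span, the distance from the first to the last base of the circle including the introns inside it, had a median of 4627 bases (quartiles 2035 and 10303) and ran from 178 to 187112 bases. The median was 2266.5 bases for 2 exons, 5570 for 3 and 8497 for 4, an order that follows in part from the number of exons by which the members were taken. Among members with at least 10 reads the longest were circRNA1003 of Phactr2, an actin and phosphatase regulator (51814 bases), circRNA1194 of Bbs9, a subunit of the ciliary BBSome (51380 bases), and circRNA709 of Rere, an atrophin-family corepressor (40275 bases). The shortest were circRNA452 of Abhd16a, a phospholipase (305 bases), circRNA2666 of Map4k1, a kinase of blood cells (354 bases), and circRNA787 of Plxnd1, a semaphorin receptor (382 bases). Long span did not go with few reads in these examples. The Bbs9 circle had 6, 4 and 8 reads in control and 8, 8 and 3 in model libraries, while the Plxnd1 circle had 4, 0 and 3 in control and 4, 0 and 3 in model libraries.

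The introns that flank a circle were shorter in this class than around circles of 1 exon. Taking the shorter of the 2 flanking introns of each circle, the median per library was 4294 ± 282 bases for 2 to 4 exons and 11223 ± 1971 bases for 1 exon (SD, n = 6, lower in 6 of 6 libraries, exact paired permutation p = 0.03125, adjusted 0.0417). Against circles of 5 or more exons, at 4508 ± 425 bases, the difference of -214 bases was within the spread between libraries (SD of the difference 447, exact paired permutation p = 0.344, adjusted 0.375). The longer of the flanking introns had medians of 11609 ± 586, 31001 ± 4396 and 12086 ± 1143 bases for 2 to 4, 1 and 5 or more exons (SD, n = 6), with an adjusted p of 0.0417 against 1 exon and of 0.338 against 5 or more (exact paired permutation test). Weighted by reads, the differences from circles of 5 or more exons turned direction, to 253 bases in the shorter intron (exact paired permutation p = 0.469) and 2026.5 bases in the longer (exact paired permutation p = 0.03125). In 22 members an end of the circle had no intron in the annotation used, and these were left out of the intron lengths. A circle found in several libraries enters each with the same introns, so the libraries in these tests are not independent.

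Within the class, circles with more reads had longer flanking introns. The shorter flanking intron had a median of 2994 bases for circles with 1 read, 3639 for 2 to 4 reads, 5940 for 5 to 9 reads and 9005 for 10 or more, and 11252.5 for the 57 circles with at least 20 reads. Both introns exceeded 10000 bases in 17.5% of the circles with 1 read and in 43.6% of those with 10 or more. The median span was between 4602 and 4882 bases in the first 4 of these sets and 5696 bases for the circles with at least 20 reads. In a single library, circles with 1 read had a median of 3769 ± 334 bases and those with 5 or more reads a median of 10270 ± 1150 bases (SD, n = 6), higher in 6 of 6 libraries (exact paired permutation p = 0.03125). This comparison was chosen after the values were seen, and span in the same libraries was 4637 ± 222 and 5512 ± 602 bases (SD, n = 6, higher in 6 of 6, exact paired permutation p = 0.03125). A circle found in several libraries enters each of them with the same introns and span. The 6 libraries are therefore not independent measures of these lengths.

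**Figure D3:**
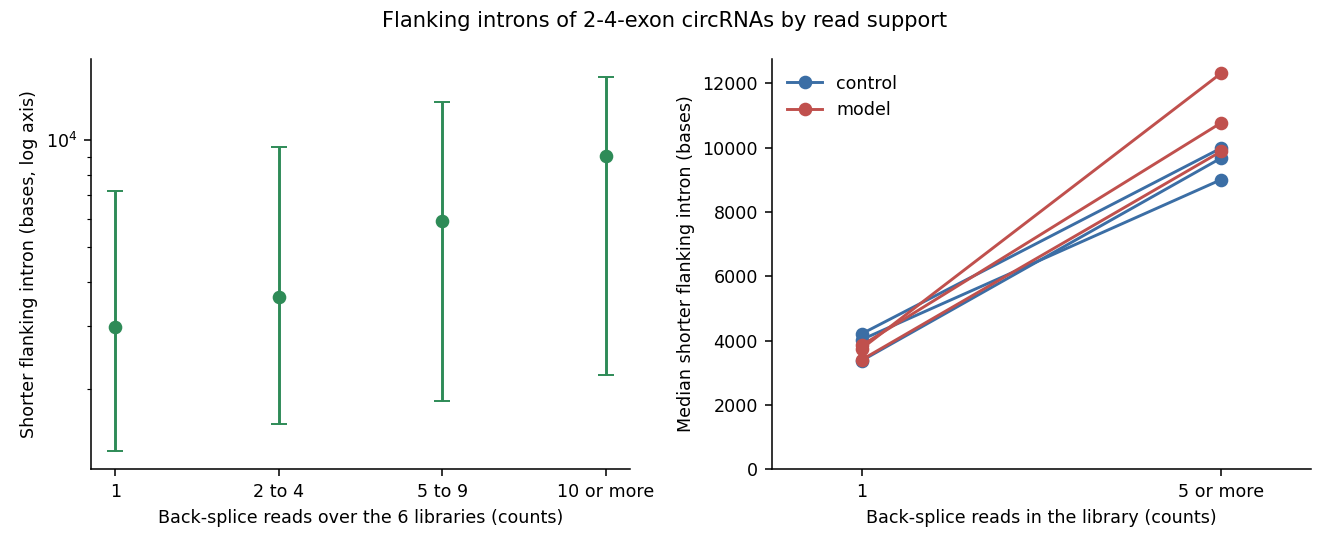
Left, the median and quartiles of the shorter flanking intron (bases, log axis) of 2-4-exon circRNAs, grouped by total back-splice reads over the 6 libraries. Right, the median in each control (blue) and model (red) library for circles with 1 read and with 5 or more reads in that library, in bases, where all 6 lines rise from between 3375 and 4209 to between 9002.5 and 12310.5.

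Circles with at least 10 reads included both long and very short flanking introns. Among them, circRNA1852 of Ssbp2, which encodes a DNA-binding cofactor, was the one whose shorter flanking intron was longest. The Ssbp2 circle had 75628 bases upstream, 95270 downstream and 46 reads. At the other end, circRNA146 of Hnrnph1, a splicing factor gene, had an upstream intron of 56 bases, a downstream intron of 678 bases and 33 reads (13, 6 and 2 in control, 9, 0 and 3 in model libraries). The circle of Psmd2, a proteasome subunit gene, was flanked by 389 and 415 bases and was found in all 6 libraries with 23 reads.

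The most abundant members were present in both groups, and the counts of the first 2 overlapped. The leading circle was circRNA98 of Ttc3, which encodes a ubiquitin ligase, on chromosome 11 from 34612627 to 34614139 (plus strand, 4 exons, coordinates of the deposited table, whose build is not given in the sources used here). It had 43, 18 and 39 reads in control and 43, 27 and 30 in model libraries, 200 in all. Next came circRNA695 of Arid1a, a subunit of the SWI/SNF chromatin remodeller, on chromosome 5 from 151944769 to 151947717 (minus strand, 3 exons), with 36, 17 and 30 reads in control and 35, 23 and 46 in model libraries. These 2 circles held 4.42% of the class reads and the first 10 held 9.94%. Reads were normalized to library totals adjusted by TMM, a scaling factor per library. On this scale circRNA98 was at 31.7 ± 9.34 and 34.6 ± 9.55 reads and circRNA695 at 26.5 ± 6.57 and 34.9 ± 6.53 (control and model, SD, n = 3). The log2 fold changes were 0.11 ± 0.33 and 0.39 ± 0.34 (SE, edgeR quasi-likelihood test, adjusted p = 0.985 for both).

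Among the other 8 of the first 10, model and control reads overlapped in all but the Slc16a10 circle, and normalized reads in all but the Lifr circle. The circle circRNA679 of Eri3, an exoribonuclease-family gene, had 8, 12 and 16 reads in control and 7, 18 and 15 in model libraries. The circle circRNA1272 of Snrk, an SNF1-related kinase gene, had 13, 13 and 8 against 5, 16 and 14. The circle circRNA432 of Zfp532, a zinc finger gene, had 17, 6 and 11 against 6, 10 and 10. In these 3 circles the groups interleave. The circle circRNA534 of Crim1, which encodes a membrane protein that binds bone morphogenetic proteins, had 15, 7 and 5 reads in control and 11, 9 and 9 in model libraries. The circle circRNA472 of Slc16a10, an amino acid transporter gene, had 8, 9 and 4 against 10, 10 and 13, and circRNA126 of Spidr, a DNA repair scaffold gene, had 6, 11 and 19 against 5, 5 and 7. The circle circRNA920 of Lifr, the receptor of leukaemia inhibitory factor, had 13, 10 and 22 reads in control and 10, 4 and 11 in model libraries. After normalization the Lifr circle was the one whose groups did not overlap, at 14.3 ± 3.98 and 8.31 ± 3.06 reads (SD, n = 3), with a log2 fold change of -0.77 ± 0.52 (SE) and an adjusted p of 0.985 in edgeR. The circle circRNA1852 of Ssbp2 had 0, 10 and 8 reads in control and 9, 13 and 6 in model libraries.

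The linear RNA of these hosts differed widely in level for similar circle counts. Slc16a10 and Spidr stood at 2.75 ± 0.481 and 2.77 ± 0.304 FPKM in control lungs (SD, n = 3), near the bottom, and Lifr at 55.3 ± 1.34 FPKM. Macf1, with 85.4 ± 1.84 FPKM in control lungs (SD, n = 3), had 8 circles of 2 to 4 exons with 19 reads in all. FPKM is a level per length and a circle is counted at 1 junction, so these are linear levels between genes and not a comparison of both kinds of RNA.

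For single circles, model and control libraries were compared with edgeR on the 226 circRNAs with at least 10 reads, 159 of which were circles of 2 to 4 exons. An unadjusted p of at most 0.05 was met by 9 of the 159 (5.66%), where the background over all 226 was 5.31%. The study's methods set a p of at most 0.05 for circRNAs and mention adjustment without saying which of them the rule uses. Of the 9, 2 were higher in the model (background 1.33%) and 7 were lower (background 3.98%). With a Benjamini-Hochberg adjusted p below 0.05 there was 1 member (background 0.442%). At least a 2-fold difference in either direction (1 on the log2 scale) was fitted for 44 members (27.7%, background 25.7%), 25 of them higher (background 13.3%) and 19 lower in the model (background 12.4%). Normalized reads of the 2 groups did not overlap in 20 members (12.6%, background 11.1%). Each of these shares was close to the background, which includes the 159 members, so part of that closeness follows from the overlap. The median log2 fold change was 0.11 over the members and 0.10 over all 226. DESeq2 gave 4 members at an unadjusted p of at most 0.05, all 4 among the 9, and 0 after adjustment. At this depth a small change was rarely detectable: of 40 simulated circles changed by 2-fold the test found 5 at that p, and of 40 changed by 8-fold it found 33, with 10 false calls among the unchanged circles in each case. After adjustment it found 0 and 20, with no false call. The changed circles were picked from all 226, every simulated circle had the same spread between rats, and each fold was drawn once. These counts hold for that setting and do not cover circles with an uneven spread between rats.

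**Figure D4:**
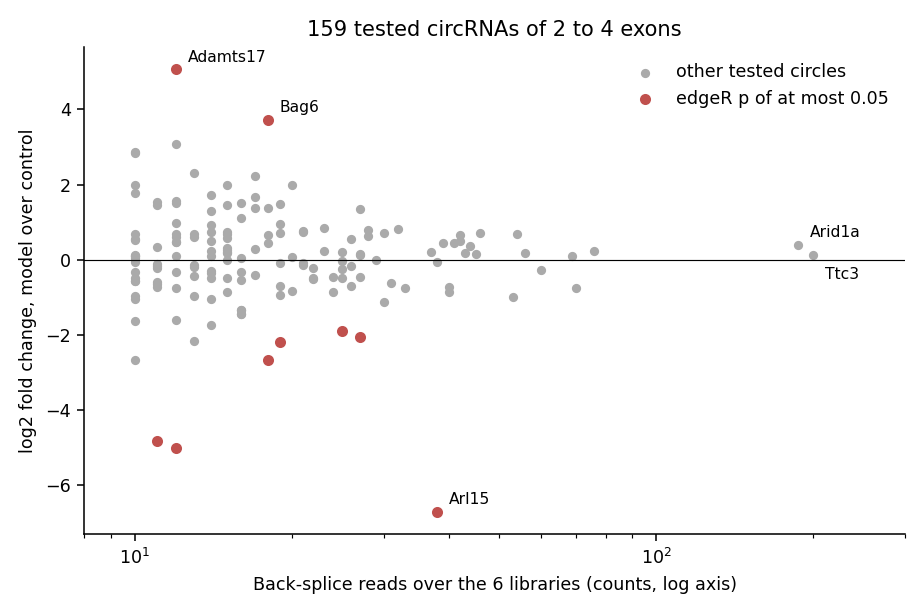
log2 fold change of model over control (edgeR) against total back-splice reads over the 6 libraries (log axis) for the 159 tested circRNAs of 2 to 4 exons, with the 9 of p at most 0.05 in red. The spread narrows as reads increase, the most abundant circles (Ttc3, Arid1a) lie near 0, and the Arl15 circle lies lowest at -6.72.

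The circle with the smallest p was circRNA917 of Arl15, a small GTPase of the ARF-like family. It spans 12206 bases of chromosome 2 from 45801786 to 45813991 (plus strand, 2 exons). It had 20, 18 and 0 reads in control and 0, 0 and 0 in model libraries. So 2 control lungs had it, and control library 3 was at 0 like the models. In reads pooled over each group, with 3 reads as the limit for a count of 0, it was at least 12.7-fold lower in the model. This bound covers the counting error of the 0 only. It takes the control reads as exact, so it leaves out their counting error and the spread between rats. The edgeR test gave an adjusted p of 9.02e-06 (log2 fold change -6.72 ± 1.21, SE). The adjusted p was 0.994 in DESeq2, 0.725 without control library 1, 0.0617 without model library 1, 0.708 without model library 2 and 0.283 when only circles with at least 20 reads were tested, and over all alternatives it ran from 2.21e-09 to 0.994. The linear RNA of Arl15 was present in every lung, at 17.1, 15.6 and 17.3 FPKM in control and 11.5, 14.8 and 14.8 FPKM in model libraries.

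Arl15 gave a second member that starts at the same acceptor. circRNA3298, of 3 exons, spans 57402 bases of chromosome 2 from 45801786 to 45859187, and had 0, 0 and 0 reads in control and 2, 0 and 7 in model libraries. No library held both circles. A 1-exon circle of Arl15, circRNA1862, made of the last exon of the longer one, had 0, 2 and 0 reads in control and 0, 0 and 4 in model libraries. Among members found in at least 2 libraries there were 53 pairs on 42 hosts that share an acceptor or a donor, and in 2 of the 53 pairs one circle was in control libraries only and the other in model libraries only. The second pair belonged to Setd7, a lysine methyltransferase gene, with 0, 1 and 3 control reads of circRNA1875 and 0, 1 and 1 model reads of circRNA3915. Pairs were not counted over all circRNAs, so 2 of 53 cannot be read as a trait of the class. A switch between the circles of a pair was not tested.

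Lower reads in the model at an unadjusted p of at most 0.05 were also found for 6 other members, none of which passed after adjustment. The circle circRNA431 of Zfp532 had 9, 2 and 1 reads in control and 0 in each model library, at least 4.01-fold lower in pooled reads (edgeR adjusted p = 0.599). It shares its acceptor with the abundant circRNA432 of the same gene, whose counts overlapped between groups. The circle circRNA1065 of Tmem41b, an endoplasmic reticulum lipid scramblase gene, had 7, 0 and 4 reads in control and 0 in each model library. It was at least 3.67-fold lower in pooled reads (edgeR adjusted p = 0.690). The bounds for both take 3 reads as the limit over the model group and the control reads as exact. They leave out the counting error of the control reads and the spread between rats.

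The remaining 4 were present in both groups. The circle circRNA1198 of Herpud2, a gene of an endoplasmic reticulum membrane protein, had 3, 8 and 11 reads in control and 1, 0 and 4 in model libraries, which overlap (log2 fold change -2.05 ± 0.91, SE, edgeR adjusted p = 0.769). The circle circRNA271 of Ash2l, a core subunit of histone H3K4 methyltransferase complexes, had 4, 4 and 8 against 0, 2 and 0, which do not overlap (-2.66 ± 1.20, SE, edgeR adjusted p = 0.769). The circle circRNA131 of Txndc11, a thioredoxin-domain gene, had 8, 7 and 5 against 0, 2 and 3. The circle circRNA960 of Ash1l, a histone H3K36 methyltransferase, had 2, 5 and 9 against 1, 1 and 1 (-2.20 ± 1.11, SE, edgeR adjusted p = 0.791). In both the Txndc11 and the Ash1l circle, every control library had more reads than every model library.

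Higher reads in the model at an unadjusted p of at most 0.05 were found for 2 members, and neither passed after adjustment. The circle circRNA2331 of Bag6, a chaperone gene for membrane proteins, lies on chromosome 20 from 5129033 to 5131408 (plus strand, 4 exons). It had 0, 0 and 1 reads in control and 4, 5 and 8 in model libraries, so the groups did not overlap (log2 fold change 3.73 ± 1.30, SE, edgeR adjusted p = 0.472). It stayed past the unadjusted threshold in every alternative that tested it. The circle circRNA3949 of Adamts17, a secreted metalloprotease gene, had no control reads and 0, 5 and 7 model reads (edgeR adjusted p = 0.599). In pooled reads it was at least 3.99-fold higher by the same limit of 3 reads over the group, with the model reads taken as exact. This bound leaves out their counting error and the spread between rats. Model library 1 was at 0 like the controls.

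Next by p on this side came 3 circles that missed the threshold, each with an edgeR adjusted p of 0.791. The circle circRNA464 of Rtkn2, a gene that marks type 1 alveolar cells, had 3, 0 and 0 reads in control and 0, 10 and 4 in model libraries. Linear Rtkn2 lay between 21.3 and 26.2 FPKM in all lungs. The circle circRNA1334 of AABR07035437.1 had 0, 1 and 0 against 2, 5 and 4, and circRNA1977 of Armh3 had 0, 1 and 3 against 9, 3 and 4. In the latter 2 circles the normalized reads of the groups did not overlap.

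**Figure D5:**
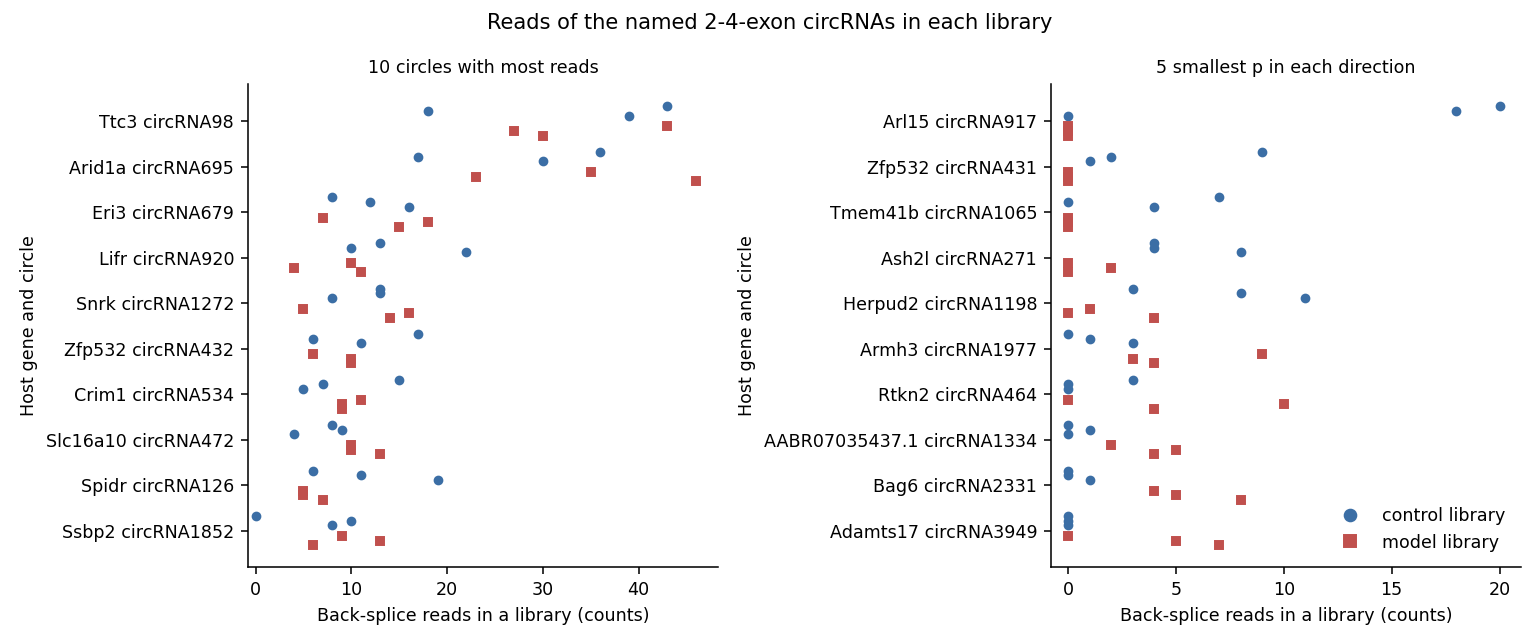
Back-splice reads in each control (blue circles) and model (red squares) library for the 10 circRNAs of 2 to 4 exons with most reads (left) and the 5 with the smallest edgeR p in each direction (right). On the left the counts of both groups overlap except for the Slc16a10 circle (4 to 9 in control, 10 to 13 in model), and on the right most values lie at or below 10 reads, apart from the Arl15 circle in 2 control libraries (20 and 18) and the Herpud2 circle in 1 (11).

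The members came from 1940 host genes. Of these, 1402 gave 1 circle and 538 (27.7%) gave 2 or more, and the latter held 1361 circles (49.3%) and 4988 reads (56.9%). There were 25 hosts with 5 or more. Per library a host had 1.15 ± 0.0103 circles of 2 to 4 exons, more than the 1.02 ± 0.0223 of 1 exon (SD, n = 6, higher in 6 of 6 libraries, exact paired permutation p = 0.03125, adjusted 0.0417). A class with more circles can place more of them on the same host, and the classes held 2763 and 279 circles. This test therefore cannot separate a trait of the class from its size. Against circles of 5 or more exons, at 1.14 ± 0.0114, the difference was 0.00303 (exact paired permutation p = 0.656). It turned to -0.0114 among circles with at least 2 reads (p = 0.03125 in the same exact test). Of the 1940 hosts, 584 (30.1%) also gave a circle of 5 or more exons and 122 (6.29%) one of 1 exon.

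Some circles of a host shared a splice site or overlapped, but most pairs within a host lay apart. Of the 1361 circles on hosts with several, 516 (37.9%) shared a splice site with another member, 347 of them the acceptor and 202 the donor. Among the 1280 pairs of circles within a host, 315 (24.6%) were nested, 139 (10.9%) overlapped in part and 826 (64.5%) lay apart. In the 125 such hosts with at least 10 reads, the leading circle held a median of 80% of the host's reads from this class. In Ttc3 it held 99.0%.

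The 3 hosts with most circles had few reads on each. Macf1, which encodes a linker of actin and microtubules, gave 8 circles, none with more than 4 reads and none sharing a splice site with another member. Man2a1, a Golgi mannosidase gene, gave 7 circles with 22 reads. Its circRNA1180, circRNA2023 and circRNA1181 share the acceptor at 112317485 on chromosome 9 and join 2, 3 and 4 exons, with 4, 1 and 6 reads. Ncor1, a nuclear receptor corepressor gene, gave 7 circles with 10 reads, none with more than 2. No circle of these 3 hosts was in all 6 libraries.

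Crim1 combined many circles with many reads, 6 circles and 113 reads. circRNA534 (3 exons) and circRNA535 (2 exons) lie apart on chromosome 6, with 9776 bases of intron directly between them, and both were in all 6 libraries. circRNA535 had 4, 9 and 9 reads in control and 1, 13 and 9 in model libraries. Linear Crim1 RNA was at 15.6 ± 0.592 FPKM in control and 15.4 ± 0.689 in model lungs (SD, n = 3).

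Hosts were also read against 4 lists of genes, with no test of the lists. As background, 1816 of 13318 genes with a mean of at least 1 FPKM (13.6%) gave a circle of 2 to 4 exons. The list shares count all listed genes, of which 22, 31, 27 and 21 reached that level, in the order given below. The background was not matched to the lists for gene length or number of exons, so the shares are not directly comparable. Among hosts known from other mammalian tissues, 15 of 26 did (57.7%), with 27 circles and 156 reads. Cdyl, a chromodomain gene, gave circRNA231 with 3, 3 and 5 reads in control and 2, 8 and 5 in model libraries. Rere gave circRNA709 with 3, 5 and 0 against 5, 3 and 7. Camsap1, which encodes a microtubule minus-end protein, gave circRNA811 with 3, 0 and 2 against 4, 2 and 3, and Zranb1, a deubiquitinase gene, gave circRNA1954 with 0, 1 and 3 against 0, 1 and 5. The counts of these 4 circles overlapped between groups.

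Chromatin regulators gave a circle in 27 of 34 genes (79.4%), with 40 circles and 334 reads, 187 of them from Arid1a alone. Besides Arid1a and the lower circRNA960 of Ash1l, 5 members had at least 10 reads. A second circle of Ash1l with the same acceptor, circRNA959, had 5, 2 and 0 reads in control and 3, 0 and 9 in model libraries. The circle circRNA725 of Kmt2e had 2, 3 and 6 against 2, 0 and 0, and circRNA222 of the methyltransferase gene Nsd1 had 1, 0 and 0 against 0, 4 and 5. The circle circRNA626 of the remodeller gene Chd7 had 1, 0 and 2 against 4, 2 and 2, and circRNA1834 of the Polycomb-associated gene Asxl1, which is also among the known hosts, had 0, 1 and 5 against 1, 2 and 2. Of these, circRNA960 was the one with an unadjusted p of at most 0.05.

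TGF-beta and BMP signalling genes gave a circle in 10 of 28 (35.7%), with 58 reads, 33 in control and 25 in model libraries. The circle circRNA439 of Smad4, the shared mediator of both pathways, had 6, 4 and 6 reads in control and 6, 2 and 0 in model libraries (edgeR adjusted p = 0.985). The circle circRNA1154 of the BMP receptor gene Bmpr2 had 4, 0 and 4 against 3, 2 and 0 (edgeR adjusted p = 0.985). Ubiquitin ligases gave a circle in 15 of 24 (62.5%), with 46 reads in control and 44 in model libraries. The circle circRNA1230 of Herc1 had 5, 3 and 3 reads against 3, 0 and 7, and circRNA1166 of Trip12 had 1, 6 and 4 against 1, 1 and 1. No tested member of either list reached an unadjusted p of at most 0.05.

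The linear RNA of genes that act on circRNAs was compared last. Of 20 genes in the list, 19 were found among the 19678 genes tested with limma on log2(FPKM + 1). Qki was the one not matched by symbol, so it was not tested. None of the 19 was called, which took a p of at most 0.05 together with group means at least 2-fold apart, where the background was 1.7% of genes. At p alone the count was also 0 of 19 (background 4.47%), and none had an adjusted p below 0.05 (background 0.00508%). Their log2 fold changes ran from -0.32 to 0.15, with 9 above and 10 below 0, medians of -0.0050 in the list and -0.0041 over all genes, and adjusted p between 0.945 and 0.997. The smallest p belonged to Upf1, an RNA helicase of decay, at 13.9 ± 0.559 FPKM in control and 15.5 ± 0.758 in model lungs (SD, n = 3), and Mbnl1, a splicing factor that favours its own circle, at 43.6 ± 1.98 and 35.3 ± 6.93 FPKM (SD, n = 3), both with a limma adjusted p of 0.945. Adar and Dhx9, which oppose circle formation, were at 7.20 ± 0.634 and 15.4 ± 0.935 FPKM in control and 6.52 ± 0.481 and 14.7 ± 0.855 FPKM in model lungs (SD, n = 3). The export helicase gene Ddx39b is merged with a neighbour in the table, and its locus was at 119 ± 8.90 and 118 ± 13.6 FPKM (SD, n = 3).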

How the data were processed

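Members, gene lists and tests were chosen with earlier results of these data known. Libraries were grouped by their titles (3 control, 3 model). The authors used Cutadapt for trimming and Bowtie2 with Tophat2 for mapping, remapped unmapped reads with Tophat-fusion and called circRNAs with CIRCexplorer. Tool versions and the genome build are not given in the sources used here. The submitters' processing notes also list HISAT2 and StringTie. Deposited back-splice reads are raw counts, deposited SRPBM is a signal scaled by a total that the table does not give, and the authors' transcript FPKM came from StringTie and Ballgown, with deposited per-base coverage as an unscaled signal. Gene FPKM was the sum over transcripts weighted by length.

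CircRNAs with at least 10 reads were tested with edgeR 4.0.16 (TMM, quasi-likelihood), DESeq2 1.42.0 being an alternative, and genes with FPKM above 0 in at least 3 libraries with limma 3.58.1 (trend, pseudocount 1) in R 4.3.3. Other tests were exact and two-sided. Tests were tried on simulated data (226 circRNAs, 19678 genes). Named circles were the 10 with most reads, the 5 smallest p in each direction, the circles of the 3 hosts with most circles, the 3 longest and 3 shortest with at least 10 reads, and those with at least 10 reads from the lists. Other named circles were chosen after their values were seen. Alternatives were other scalings, filters, exon limits and tests, a replicate block, and each library left out. Python 3.11.15, pandas 2.3.3, numpy 2.4.6, scipy 1.17.1 and matplotlib 3.10.9 were used.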

Additional observations from a re-analysis of the deposited data

How the results depend on the processing

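With between 1241 and 1739 reads per library on a class of 2763 circles, depth limits single circles to large differences. The count of 9 members with an unadjusted edgeR p of at most 0.05 was 15 with no read filter, 3 with at least 20 reads and 4 with DESeq2, and ran from 6 to 11 with a library left out, of which 5 or 6 were among the 9. The 1 member with an adjusted p below 0.05 became 0 with at least 20 reads and in DESeq2, and 0 to 1 with a library left out (0 without control library 1, model library 1 or model library 2). Members at least 2-fold apart, 44 of 159, became 2328 of 2763 with no filter and 7 of 57 with at least 20 reads. With no filter, 1449 of the 2763 had a single read, so a fitted 2-fold difference means little there. Shares over all circRNAs were taken in the main setting only, so the counts under alternatives have no background beside them. Other scalings left 9 or 10 members at the unadjusted p.

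The replicate numbers were not taken as pairs in the main tests. Deviations of control and model libraries with the same number correlated at -0.088, -0.026 and -0.131 over 226 circRNAs. They correlated at 0.095, 0.086 and 0.015 over 13318 genes. Over the circRNAs no library correlated best with its own number. Over the genes every library did, though weakly, and for control library 3 the next value was 0.0148. Whether the numbers pair the rats cannot be told from these values. With the number as a replicate block, edgeR called 2 members at the unadjusted p and 0 after adjustment, the differences in reads, share and circles had exact paired p of 0.75, 1 and 0.75 where 3 pairs allow none below 0.25, and the log2 fold change of the Asxl1 circle, circRNA1834, was 0.32.

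The difference in class reads between model and control was -389 on summed SRPBM and -106 to 127 with a library left out (negative without control library 2 or model library 3). That in share was -0.154 to 2.77 percentage points (negative without model library 2) and that in circles -18.8 to 97.2 (negative without model library 3). None of these passed its test.

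With 5 libraries, sign flips allow no p below 0.0625, so each class comparison missed the threshold when a library was left out, with its direction kept where it had passed. Against circles of 1 exon, the differences then ran from 4159 to 4202 bases in span, -7377 to -6237 and -20397 to -17938 bases in the shorter and longer intron, -1.23 to -1.03 in reads per circle, -13.5 to -11.3 points in recurrence and 0.121 to 0.133 in circles per host. Against 5 or more exons they ran from -13047 to -12692 bases in span, 0.329 to 0.374 in reads per circle, 14.3 to 15.9 points in recurrence and -0.00143 to 0.00754 in circles per host. Circles per host against 5 or more exons was -0.0114 among circles with at least 2 reads and -0.0481 with exons 2 to 3, both with an exact paired p of 0.03125. Weighted by reads, the introns were longer in this class than at 5 or more exons by 253 (shorter) and 2026.5 bases (longer, exact paired p = 0.03125). The causes were not tested.

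Of 39 named circles, 15 changed sign under some alternative, none of them with a p of at most 0.05. On SRPBM totals the log2 fold change was -0.17 for Ttc3 circRNA98, -0.083 for Snrk circRNA1272, -0.050 for Crim1 circRNA534, -0.0036 for Phactr2 circRNA1003, -0.067 for Bbs9 circRNA1194 and -0.18 for Plxnd1 circRNA787, which was -0.0065 by library size alone. With a library left out it ran from -0.20 to 0.31 for Ttc3 circRNA98, -0.19 to 0.48 for Eri3 circRNA679, -0.34 to 0.40 for Snrk circRNA1272, -0.52 to 0.091 for Zfp532 circRNA432, -0.17 to 0.69 for Crim1 circRNA534, -1.77 to 2.04 for Phactr2 circRNA1003, -0.10 to 0.62 for Bbs9 circRNA1194, -0.39 to 1.23 for Abhd16a circRNA452, -0.65 to 0.68 for Plxnd1 circRNA787, -0.69 to 1.45 for Asxl1 circRNA1834, -1.0 to 1.61 for Zranb1 circRNA1954, -0.11 to 0.85 for Cdyl circRNA231, -0.48 to 1.73 for Ash1l circRNA959, -1.19 to 0.16 for Bmpr2 circRNA1154 and -1.07 to 0.38 for Herc1 circRNA1230.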
